A study of Macaca mulatta with 19 samples.

Results

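The genes described here are 10 enzymes of antioxidant defence, measured by RNA sequencing in luteinized granulosa cells of rhesus macaques: SOD1, SOD2, CAT, GPX3, GPX4, PRDX1, TXNRD1, GCLM, NQO1 and HMOX1. They were chosen by name from a table of 32386 genes. Of the 10, 9 stood in that table under their symbol. PRDX1 stood there without one and was found through its identifier, ENSMMUG00000006221, which a reference table of gene names pairs with PRDX1. All 10 passed the filter on low counts, among 15019 genes tested for treatment and 14976 tested for oocyte class.

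These enzymes act in sequence on reactive oxygen species. Superoxide dismutases turn superoxide into hydrogen peroxide, which catalase, glutathione peroxidases and peroxiredoxins then remove; glutathione synthesis and thioredoxin reductase keep the last 2 of these supplied with reducing power, while quinone reductase and heme oxygenase clear redox-active quinones and heme. Several of the genes, in human and mouse cells among them GCLM, NQO1, HMOX1, TXNRD1 and PRDX1, are known targets of the transcription factor NRF2 (gene NFE2L2). Steroid-producing follicle cells generate reactive oxygen species in their mitochondria during hormone synthesis, and the ovulatory surge is known to raise oxidant production in the follicle.

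Each of the 19 libraries came from 1 female. The groups were Chow+T (standard diet with a testosterone implant, 4 libraries), WSD+C (Western-style diet with a cholesterol implant, 5), WSD+T (Western-style diet with a testosterone implant, 6) and the control Chow+C (standard diet with a cholesterol implant, 4). Testosterone implants raised the hormone 4 to 5 fold above the cholesterol implants, treatment began near menarche and lasted about 3.5 years, and all groups went through a controlled ovulation cycle before the natural periovulatory follicle was aspirated. At enrolment there were 10 animals per treatment, of which 7 to 10 entered those cycles; no sort of the aspirated cells is named. The labels also give the oocyte of the same follicle: degenerating in 6 libraries, MII (metaphase II) in 4, MI (metaphase I) in 8 and GV (germinal vesicle) in 1. Chow+T held no MI oocyte, WSD+C no MII oocyte and Chow+C no degenerating one, so oocyte class and treatment were spread unevenly. Libraries are named by group and replicate number, and those numbers pair nothing across groups.

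Gene counts per library ran from 28832132 to 56385679. Levels are given as TMM-scaled CPM (gene counts scaled to library size by trimmed means) and differences as fitted log2 fold changes. Of the 9 granulosa markers found in the table, 8 reached 1 CPM in all 19 libraries; the granulosa score (mean log2 CPM of the markers) was 5.39 in WSD+C 4 and 7.07 to 8.89 in the others. The leukocyte score was 6.79 in WSD+T 6, 6.53 in WSD+C 4 and 3.80 in WSD+T 3, against -2.15 to 2.73 in the other 16 libraries. Of the 12 leukocyte markers RAC2 had no read in any library. These 3 libraries were all from WSD animals and all had a degenerating oocyte, and WSD+C 4 also had the highest erythroid score, 9.81. An aspirate is a mixture of cells, and in such bulk RNA fewer cells of a type and less RNA per cell cannot be told apart.

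None of the 10 genes passed an adjusted p of 0.05 by edgeR's quasi-likelihood test in any of 11 comparisons. The same was true of all genes tested: 0% passed in each of the 8 treatment comparisons and the 3 oocyte comparisons. DESeq2 called 1 of the 10, GPX4, in degenerating against MI, where it called 801 of 14800 genes (5.41%), and limma voom called none. At an unadjusted p under 0.05, edgeR put 2 of the 10 forward for the diet main effect (6.87% of all genes), 2 for WSD+T against Chow+C (6.75%) and 2 for WSD+T against Chow+T (4.97%). It put 1 forward for the testosterone by diet interaction (4.52%), 2 for degenerating against MI (14.3%) and 1 for degenerating against MII (3.38%). There were 0 in Chow+T against Chow+C (7.18%), WSD+C against Chow+C (5.08%), WSD+T against WSD+C (3.86%), the testosterone main effect (6.31%) and MII against MI (3.91%). In WSD+C against Chow+C (0.553% of all genes), WSD+T against Chow+C (0.739%), WSD+T against WSD+C (0.0732%), MII against MI (0.861%), degenerating against MI (0.0935%) and degenerating against MII (0.661%) none of the 10 had groups that did not overlap. The genes behind the counts at an unadjusted p under 0.05 were PRDX1, GPX3, GPX4 and CAT, and the other 6 never reached an unadjusted p of 0.05 by this test.

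**Figure D1:**
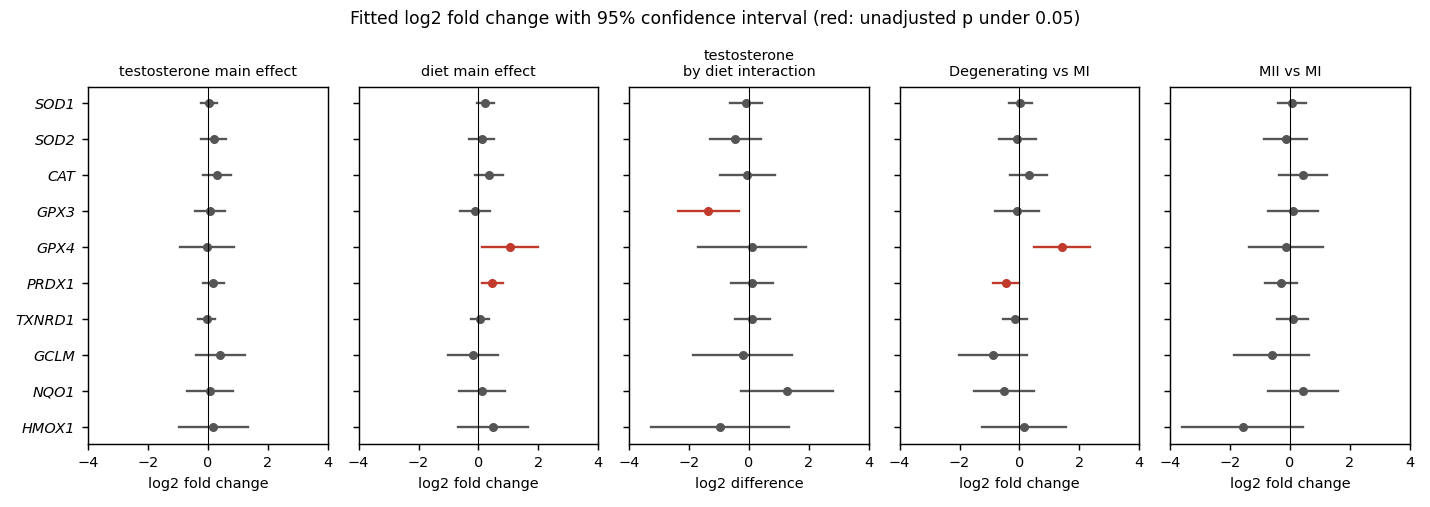
Fitted log2 fold changes of the 10 genes (rows) with 95% confidence intervals, in 5 of the comparisons (panels); red marks an unadjusted p under 0.05. The intervals of GPX4 and PRDX1 for diet, of GPX3 for the interaction, and of GPX4 and PRDX1 for degenerating against MI leave out 0, and SOD1 and TXNRD1 have the narrowest intervals.

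SOD1 (ENSMMUG00000001711), the cytosolic copper-zinc superoxide dismutase, was among the steadiest of the 10. It stood at 129, 129, 143 and 166 CPM in Chow+T, at 110.4, 132, 175, 190.4 and 208 CPM in WSD+C, at 135 to 185 CPM with a median of 167 CPM in WSD+T, and at 103, 123, 148 and 160.5 CPM in Chow+C. The groups overlapped throughout. By edgeR the diet main effect on SOD1 was 0.24 on the log2 scale (SE 0.131, 95% interval -0.04 to 0.51, adjusted p = 0.777), and the testosterone main effect was 0.03 (interval -0.24 to 0.31). Neither interval reached above 0.51 on the log2 scale.

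SOD2 (ENSMMUG00000038719), the manganese superoxide dismutase of the mitochondrial matrix, varied more between animals. Its level was 117, 174, 191 and 210.0 CPM in Chow+T, 112, 118, 129, 206 and 249 CPM in WSD+C, 128 to 225 CPM with a median of 149.7 CPM in WSD+T, and 69.7, 122, 159 and 166 CPM in Chow+C. The lowest library of all was Chow+C 3 and the highest WSD+C 2, and these were also the lowest and highest libraries for SOD1. The fitted difference between Chow+T and Chow+C in SOD2 was 0.42 (SE 0.304, edgeR adjusted p = 0.768); it was 0.22 without Chow+C 3.

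CAT (ENSMMUG00000002429) encodes catalase, the peroxisomal enzyme that splits hydrogen peroxide. Its highest library, WSD+T 6, held 368 CPM and stood far above the next, WSD+C 2 at 210.4 CPM. CAT was at 82.6, 137, 178 and 185 CPM in Chow+T, at 119, 135, 135, 152 and 210.4 CPM in WSD+C, at 125 to 368 CPM with a median of 136 CPM in WSD+T, and at 96.5, 99.9, 123 and 143 CPM in Chow+C. All groups overlapped, although the 6 WSD+T libraries were all above 3 of the 4 Chow+C libraries. In WSD+T against Chow+C the fitted CAT difference was 0.66 (SE 0.308, edgeR adjusted p = 0.717), and it was 0.33 without WSD+T 6. WSD+T 6 is the library with the highest leukocyte score, and CAT correlated with that score at r = 0.55 over the 19 libraries and at 0.27 without WSD+C 4 and WSD+T 6. A leukocyte-score covariate put the CAT difference at 0.40.

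PRDX1, a cytosolic peroxiredoxin that reduces hydrogen peroxide with electrons from thioredoxin, had the smallest p for diet of the 10. It averaged 228 ± 49.6 CPM (SD) in the 11 WSD libraries and 164 ± 40.9 CPM in the 8 Chow libraries. By group, PRDX1 was at 146, 153, 186 and 198 CPM in Chow+T, at 122, 182, 211, 214 and 311 CPM in WSD+C, at 219.7 to 281 CPM with a median of 239 CPM in WSD+T, and at 103, 136, 156 and 235 CPM in Chow+C. Every WSD+T library was above every Chow+T library, 219.7 CPM at the lowest against 198 CPM at the highest, a separation that 1.17% of all tested genes showed in 1 direction or the other. WSD+C 4 was the lowest WSD library and Chow+C 1 the highest Chow library, and they overlapped.

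The fitted diet main effect on PRDX1 was 0.46 (SE 0.169, 95% interval 0.10 to 0.81, a fold of 1.37; edgeR adjusted p = 0.701). A smaller p was found for 1.25% of all genes. Leaving out each library in turn gave 0.37 to 0.59, with an unadjusted p under 0.05 in all 19 fits and no adjusted p under 0.05. Libraries with an MI or MII oocyte alone gave 0.63 (edgeR adjusted p = 0.54). Among these, Chow+T held only MII and WSD+C only MI oocytes, so diet and oocyte class cannot be fully told apart. A leukocyte-score covariate gave 0.51 (edgeR adjusted p = 0.964). Within that effect PRDX1 differed by 0.52 between WSD+T and Chow+T (SE 0.235, adjusted p = 0.862), and by 0.40 between WSD+C and Chow+C (SE 0.242, adjusted p = 0.83), which was 0.22 without WSD+C 2 and 0.66 without Chow+C 1. The interaction was 0.12 (95% interval -0.59 to 0.82, adjusted p = 0.996). WSD+T against Chow+C gave 0.63 (SE 0.236, adjusted p = 0.717), ranging from 0.48 without Chow+C 2 to 0.89 without Chow+C 1; this comparison shares its control libraries with WSD+C against Chow+C.

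**Figure D2:**
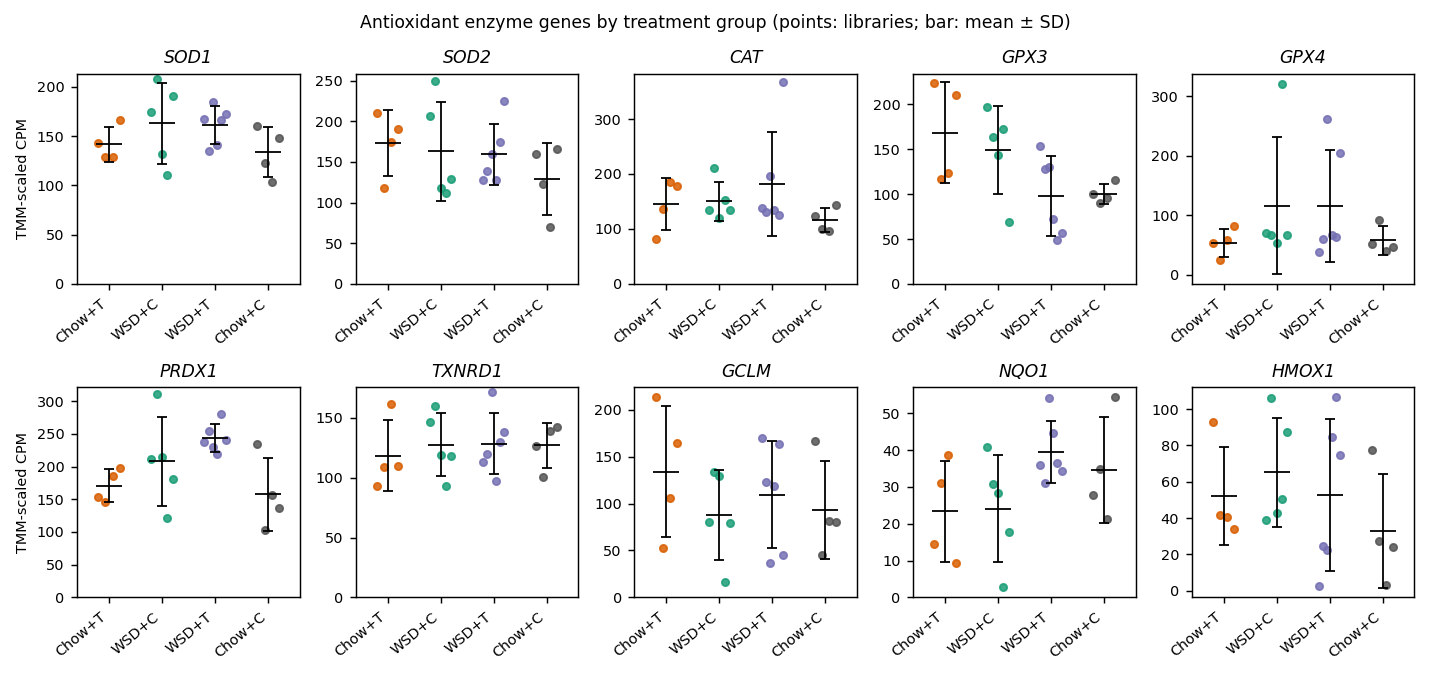
TMM-scaled CPM of the 10 genes (panels) by treatment group, with 1 point per library and bars for the mean ± SD. PRDX1 in the 6 WSD+T libraries lies above all 4 Chow+T libraries, GPX3 in the 4 Chow+T libraries lies just above all 4 Chow+C libraries, and 1 WSD+C and 2 WSD+T libraries hold the high GPX4 values.

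GPX3 (ENSMMUG00000042643) encodes a secreted glutathione peroxidase that contains selenium, known from plasma and from extracellular fluids. Its fitted testosterone differences had opposite signs on chow and on the Western-style diet, with the smallest interaction p of the 10. On chow, GPX3 was at 116, 123, 211 and 224 CPM in Chow+T, against 90.3, 95.3, 101 and 116 CPM in Chow+C. The groups did not overlap, but only just: the lowest Chow+T library held 116.4 CPM and the highest Chow+C library 115.7 CPM. Such a separation occurred in 2.66% of all tested genes. On the Western-style diet, GPX3 was at 48.7 to 154 CPM with a median of 99.8 CPM in WSD+T, against 69.1, 144, 164, 173 and 197 CPM in WSD+C. These groups overlapped, and the 4 highest WSD+C libraries lay above all WSD+T libraries but 1.

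The fitted GPX3 difference was 0.75 for Chow+T against Chow+C (SE 0.367, edgeR adjusted p = 0.69) and -0.60 for WSD+T against WSD+C (SE 0.312, adjusted p = 0.999). The interaction, the second difference minus the first, was -1.35 (SE 0.482, 95% interval -2.36 to -0.34, adjusted p = 0.933), and 0.672% of all genes had a smaller p for it. It stayed between -1.53 and -1.19 when each library was left out in turn, with an unadjusted p under 0.05 and an adjusted p above it in all 19 fits. In MI and MII libraries alone the interaction was -0.88 (adjusted p = 0.736). There Chow+T held only MII oocytes (2 libraries) and WSD+C only MI oocytes (3 libraries), so treatment and oocyte class cannot be fully told apart. The 2 highest Chow+T values of GPX3 came from the follicles with a degenerating oocyte and with the GV oocyte, and both Chow+T libraries with an MII oocyte, at 116 and 123 CPM, lay near the top of Chow+C. GPX3 also differed by -0.78 between WSD+T and Chow+T (SE 0.329, adjusted p = 0.862). The testosterone main effect, which averages both diets, was 0.07 (interval -0.43 to 0.58), and the diet main effect -0.10 (interval -0.61 to 0.40).

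GPX4 (ENSMMUG00000028946) encodes the glutathione peroxidase that reduces lipid hydroperoxides within membranes and holds back ferroptosis, an iron-dependent form of cell death. It had 3 high libraries: WSD+C 4 at 321 CPM, WSD+T 3 at 262 CPM and WSD+T 6 at 204 CPM. The other 16 libraries lay between 23.8 and 92.5 CPM. The 3 are the libraries with the highest leukocyte scores, and all had a degenerating oocyte. The other 3 libraries with a degenerating oocyte held 52.6 to 67.1 CPM, within the range of the 8 MI libraries, 39.8 to 92.5 CPM.

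By treatment, GPX4 was at 23.8, 52.6, 57.6 and 81.3 CPM in Chow+T, at 52.8, 66.6, 67.3, 69.3 and 321 CPM in WSD+C, at 37.3 to 262 CPM with a median of 64.7 CPM in WSD+T, and at 39.8, 45.6, 51.3 and 92.5 CPM in Chow+C. All groups overlapped. The diet main effect on GPX4 was 1.06 (SE 0.44, 95% interval 0.13 to 1.98, edgeR adjusted p = 0.701). It was 0.63 without WSD+C 4 and 0.11 without WSD+C 4, WSD+T 3 and WSD+T 6. A leukocyte-score covariate gave 0.43, and MI and MII libraries alone gave 0.25. Among the latter, Chow+T held only MII and WSD+C only MI oocytes. For diet, all 11 tested leukocyte markers were also higher in WSD at an unadjusted p under 0.05, with a median log2 difference of 3.24. So were 10 of 11 macrophage, 9 of 10 lymphocyte and all 6 smooth muscle markers, and none of 9 granulosa markers. The leukocyte markers together held 5.81 to 1619.8 CPM in WSD+C and 25.9 to 1881 CPM in WSD+T. They held 8.57 to 116 CPM in Chow+T and 9.65 to 53.1 CPM in Chow+C. The medians of these sums were 19.5 CPM in WSD+C, 34.4 CPM in WSD+T, 18.3 CPM in Chow+T and 32.3 CPM in Chow+C. The lowest leukocyte scores of all libraries were those of WSD+C 1 (-2.15) and WSD+C 2 (-1.43).

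GPX4 correlated with the leukocyte score at r = 0.62 over 19 libraries, and at 0.15 without WSD+C 4 and WSD+T 6. Higher values came from smooth muscle (0.74), lymphocyte (0.73), endothelium (0.71), platelet (0.69), epithelium (0.68) and neutrophil (0.64) scores. Erythroid gave 0.61, theca and stroma 0.54, macrophage 0.49, oocyte 0.22 and granulosa -0.34. Without WSD+C 4 and WSD+T 6, platelet gave 0.50, granulosa 0.49, smooth muscle 0.47, epithelium 0.45, lymphocyte 0.41, endothelium 0.35 and neutrophil 0.33. Erythroid gave 0.27 there, theca and stroma 0.20, macrophage -0.09 and oocyte -0.26. The smooth muscle score was 6.49 in WSD+C 4, 2.94 in WSD+T 3 and 2.85 in WSD+T 6. Chow+T 2 had the fourth highest leukocyte score, 2.73, and the lowest GPX4 level of all, 23.8 CPM. The part of white blood cells, or of the other cell types, in the GPX4 levels was not tested beyond these values.

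TXNRD1 (ENSMMUG00000012091), the cytosolic thioredoxin reductase and another selenium enzyme, had the smallest spread of the 10. It was at 93.1, 109, 110.1 and 161 CPM in Chow+T, at 93.4, 118, 119, 147 and 160.3 CPM in WSD+C, at 97.6 to 171 CPM with a median of 125 CPM in WSD+T, and at 101, 126, 139 and 143 CPM in Chow+C. Group means of TXNRD1 lay between 118 and 128 CPM and all groups overlapped. Its diet main effect was 0.06 (95% interval -0.23 to 0.35) and its testosterone main effect -0.05 (interval -0.34 to 0.25), so differences beyond 0.35 on the log2 scale lay outside both intervals.

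GCLM (ENSMMUG00000013857) encodes the modifier subunit of glutamate-cysteine ligase, the enzyme of the first and rate-limiting step of glutathione synthesis. The 3 libraries with high GPX4 were among the 4 lowest for GCLM, with WSD+C 4 at 16.1 CPM, WSD+T 3 at 36.7 CPM and WSD+T 6 at 45.5 CPM; the other was Chow+C 2 at 44.8 CPM. Across groups GCLM was at 52.3, 105, 165 and 214 CPM in Chow+T, at 16.1, 79.5, 80.3, 129.7 and 134 CPM in WSD+C, at 36.7 to 169.8 CPM with a median of 120.5 CPM in WSD+T, and at 44.8, 80.0, 81.1 and 167 CPM in Chow+C. The groups overlapped widely, and no treatment comparison of GCLM reached an unadjusted p of 0.05. The testosterone main effect was 0.42 with a wide interval, -0.41 to 1.25, and leaving out single libraries gave 0.26 (without Chow+T 1) to 0.64 (without Chow+C 1). GCLM and GPX4 ran against each other over the 19 libraries, with r = -0.65, and r = -0.35 without WSD+C 4 and WSD+T 6.

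**Figure D3:**
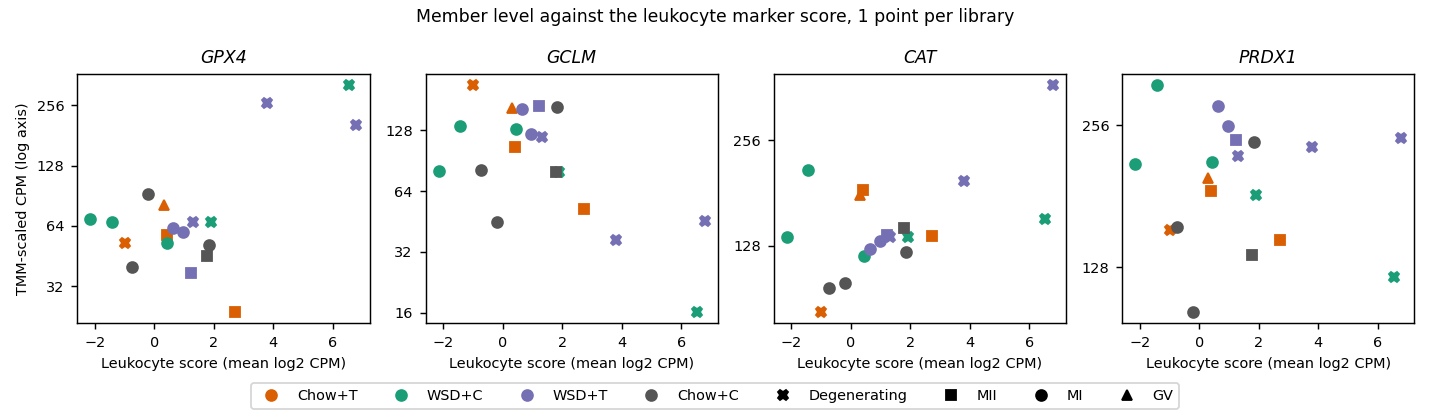
TMM-scaled CPM (log axis) of GPX4, GCLM, CAT and PRDX1 against the leukocyte score (mean log2 CPM of the marker genes), with 1 point per library, coloured by treatment and shaped by oocyte class. The 3 libraries with scores of 3.80 to 6.79 hold the 3 highest GPX4 levels and low GCLM levels, while PRDX1 shows no such order (r = -0.11).

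The catalytic subunit GCLC, which GCLM partners, did not follow GCLM. GCLC was at 1114 CPM in WSD+T 3 and at 823 CPM in WSD+T 6, the highest levels of all libraries, and at 116 CPM in WSD+C 4, the lowest. For each 100 GCLC reads there were 3.30 GCLM reads in WSD+T 3 and 5.53 in WSD+T 6, against 10.7 to 50.7 in the other libraries. The correlation of both subunits over 19 libraries was r = 0.27. In WSD+T against WSD+C the fitted GCLC difference was 0.99 (SE 0.372, edgeR adjusted p = 0.999), and that of GCLM was 0.31 (SE 0.515, adjusted p = 0.999), or 0.05 without WSD+C 4 and 0.51 without WSD+C 2.

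NQO1 (ENSMMUG00000019684), a cytosolic quinone reductase, was more even in WSD+T than in the other groups. The 6 WSD+T libraries held 31.0 to 54.1 CPM with a median of 36.3 CPM. NQO1 was at 9.28, 14.5, 31.0 and 38.8 CPM in Chow+T, at 2.83, 17.7, 28.4, 30.7 and 40.9 CPM in WSD+C, and at 21.3, 27.7, 34.8 and 54.5 CPM in Chow+C. The lowest values came from WSD+C 4 with a degenerating oocyte and from the Chow+T library with the GV oocyte. On the log2 scale the SD of NQO1 was 0.293 in WSD+T, against 0.957 in Chow+T, 1.54 in WSD+C and 0.574 in Chow+C; the difference in spread was not tested. The NQO1 interaction was 1.28 (SE 0.726, 95% interval -0.25 to 2.80, edgeR adjusted p = 0.933), from -0.56 for Chow+T against Chow+C and 0.71 for WSD+T against WSD+C. Without Chow+C 4 it was 0.96, and without Chow+T 3 it was 1.64.

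HMOX1 (ENSMMUG00000007221) encodes the inducible heme oxygenase, which breaks down heme and releases iron. It was the most variable member, at 2.52 CPM in WSD+T 1 and 107 CPM in WSD+T 5, animals of the same group. HMOX1 was at 34.2, 40.4, 41.5 and 92.6 CPM in Chow+T, at 38.8, 42.8, 50.5, 87.3 and 106 CPM in WSD+C, at 2.52 to 107 CPM with a median of 49.6 CPM in WSD+T, and at 3.24, 24.3, 27.4 and 77.4 CPM in Chow+C. Every group overlapped every other. The widest intervals of the 10 genes belonged to it: the diet main effect was 0.49 (95% interval -0.67 to 1.66) and the testosterone main effect 0.18 (interval -0.98 to 1.33). Without Chow+C 3 the diet value was 0.30 and without Chow+C 1 it was 0.92; the testosterone value was -0.03 without Chow+T 1 and 0.61 without Chow+C 1. WSD+C 4, whose erythroid score was the highest, held 50.5 CPM of HMOX1, which is the median of WSD+C.

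Set side by side, 9 of the 10 genes had a positive fitted value in WSD+T against Chow+C, with a median of 0.28; over all 15019 genes 7494 were positive. In WSD+C against Chow+C 8 of the 10 were positive with a median of 0.36, and 7899 of all genes were. In Chow+T against Chow+C 7 of the 10 were positive with a median of 0.22, and 7233 of all genes were. All 3 comparisons share the Chow+C libraries. For the diet main effect 8 of the 10 were positive (median 0.18, all genes 0.01), and for the testosterone main effect also 8 of the 10 (median 0.12, all genes -0.02). For WSD+T against WSD+C the count was 6 of the 10 (median 0.01), for WSD+T against Chow+T 7 of the 10 (median 0.15) and for the interaction 4 of the 10 (median -0.08). Of all 15019 genes, 7506, 8264 and 7666 were positive in these, in the same order. For the diet main effect 7750 of all genes were positive, and for the testosterone main effect 7123.

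Oocyte class was compared with the treatment group as a term. GPX4 had the smallest p of the 10 genes for degenerating against MI. It was at 52.6 to 321 CPM with a median of 136 CPM with degenerating oocytes, at 23.8, 37.3, 45.6 and 57.6 CPM with MII oocytes and at 39.8 to 92.5 CPM with a median of 61.1 CPM with MI oocytes. The 3 high libraries named above stood apart within the degenerating class, whose other 3 overlapped both MI and MII. The fitted GPX4 difference for degenerating against MI was 1.42 (SE 0.435, 95% interval 0.50 to 2.35, edgeR adjusted p = 0.17). DESeq2 gave 1.44 with an adjusted p of 0.0253, and edgeR without the treatment term 1.39 with an adjusted p of 0.0412. In those fits 5.41% of all genes by DESeq2, and 3.83% (574 of 14976) by edgeR without that term, also passed. The value was 0.93 without WSD+C 4, 0.77 without WSD+C 4 and WSD+T 6, and 0.07 without those and WSD+T 3. A leukocyte-score covariate gave 0.47. All 11 leukocyte and all 11 macrophage markers tested were higher in degenerating at an unadjusted p under 0.05, with medians of 5.32 and 5.35 on the log2 scale. All 10 lymphocyte and 4 of 6 smooth muscle markers were higher too, while 2 of 9 granulosa markers were lower.

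GPX4 also differed by 1.56 between degenerating and MII (SE 0.601, 95% interval 0.28 to 2.84, edgeR adjusted p = 0.962); without WSD+C 4, WSD+T 3 and WSD+T 6 that value was 0.55. Every GPX4 value with a degenerating oocyte but the lowest was above 57.6 CPM, the top of the MII class. MII against MI gave -0.14 for GPX4 (interval -1.38 to 1.11).

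PRDX1 was at 122 to 241 CPM with a median of 201 CPM with degenerating oocytes, at 136, 146, 186 and 238 CPM with MII oocytes, and at 103 to 311 CPM with a median of 225 CPM with MI oocytes. The classes overlapped. The fitted PRDX1 difference for degenerating against MI was -0.45 (SE 0.208, edgeR adjusted p = 0.347), and it was -0.21 without the treatment term. An unadjusted p under 0.05 held in 4 of the 18 fits that left out 1 library each. Since 14.3% of all genes reached that level in this comparison, 2 of 10 genes is near the background.

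GCLM ran from 16.1 to 214 CPM with a median of 62.5 CPM with degenerating oocytes, was at 52.3, 80.0, 105 and 169.8 CPM with MII oocytes, and ran from 44.8 to 167 CPM with a median of 126 CPM with MI oocytes. Both the lowest and the highest library of all had a degenerating oocyte. The fitted GCLM difference for degenerating against MI was -0.89 (SE 0.535, edgeR adjusted p = 0.452), and without WSD+C 4, WSD+T 3 and WSD+T 6 it was 0.02.

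HMOX1 was at 22.5 to 92.6 CPM with a median of 79.8 CPM with degenerating oocytes, at 2.52, 24.3, 40.4 and 41.5 CPM with MII oocytes, and at 3.24 to 107 CPM with a median of 40.8 CPM with MI oocytes. Of the 6 libraries with a degenerating oocyte 5 were above all 4 MII libraries. HMOX1 differed by 1.73 for degenerating against MII (SE 0.968, edgeR adjusted p = 0.962), with 0.89 without WSD+T 1 and 2.95 without Chow+C 4. For MII against MI the difference was -1.58 (SE 0.951), with -0.79 without WSD+T 1 and -3.07 without Chow+C 4. Both values moved by more than 1.5 times with single MII libraries.

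NQO1 was at 2.83 to 54.1 CPM with a median of 26.0 CPM with degenerating oocytes, at 31.0, 36.0, 38.8 and 54.5 CPM with MII oocytes, and at 21.3 to 40.9 CPM with a median of 30.8 CPM with MI oocytes. The single GV library, at 9.28 CPM, lay below all MI and MII libraries. The NQO1 difference for degenerating against MII was -0.95 (SE 0.553, edgeR adjusted p = 0.962), with -0.60 without Chow+C 4 and -1.43 without WSD+T 1. For SOD1, SOD2, CAT, GPX3 and TXNRD1 the classes overlapped, and none of their oocyte comparisons had an adjusted p under 0.638.

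**Figure D4:**
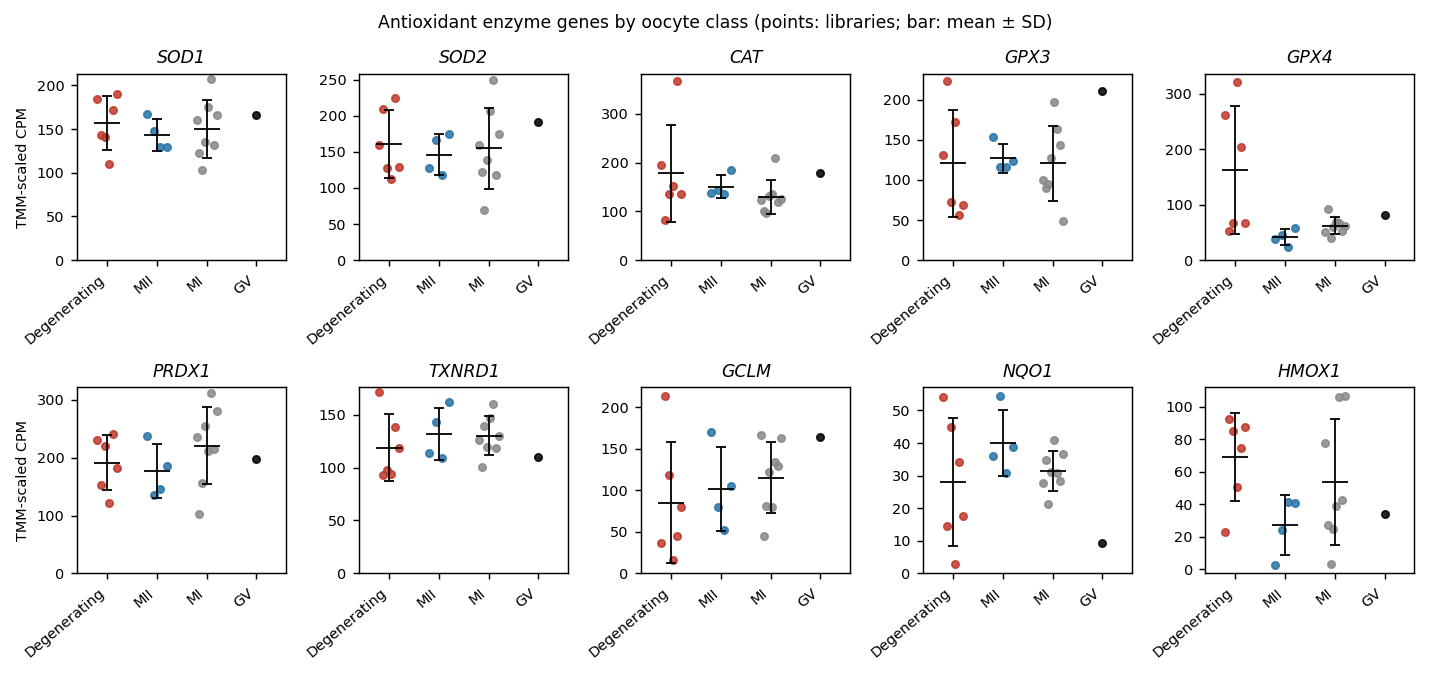
TMM-scaled CPM of the 10 genes (panels) by oocyte class, with 1 point per library and bars for the mean ± SD; the GV class is 1 library. In the degenerating class GPX4 splits into 3 libraries at 204 to 321 CPM and 3 at 52.6 to 67.1 CPM, and HMOX1 spans most of its range within the MI class.

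The 10 genes differed in how far they varied between animals. The SD of log2 CPM over the 19 libraries was 0.268 for TXNRD1, 0.272 for SOD1, 0.424 for PRDX1, 0.439 for SOD2 and 0.473 for CAT, all under the median of all tested genes, 0.550. It was 0.625 for GPX3, 0.944 for GPX4, 0.950 for GCLM, 1.0 for NQO1 and 1.5 for HMOX1. Only 13.2% of tested genes had a smaller SD than TXNRD1, while 90.8% had a smaller one than HMOX1. The highest library exceeded the lowest 1.84 fold for TXNRD1, 13.5 fold for GPX4, 19.2 fold for NQO1 and 42.3 fold for HMOX1. Treatment groups held 41.3% of the variance of log2 CPM for PRDX1 and 33.0% for GPX3, and 3.46% for TXNRD1. For the rest they held 7.83% (GCLM) to 24.5% (NQO1). Over the 18 libraries without the GV one, oocyte classes held 47.1% for GPX4, whose high libraries named above all had a degenerating oocyte. For the other 9 genes they held at most 19.2%. Small groups hold some of the variance even without a true difference, and these shares were not computed for all genes.

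Of the 45 pairs among the 10 genes 32 correlated positively over the 19 libraries, with a median Pearson r of 0.20. The libraries share depth and scaling, and these values are a description. The highest was SOD1 with SOD2, the cytosolic and the mitochondrial dismutase, at 0.71, followed by SOD1 with PRDX1 at 0.66, SOD2 with HMOX1 at 0.57 and TXNRD1 with NQO1 at 0.55. The lowest was GPX4 with GCLM, given above, and the next was GPX3 with NQO1 at -0.36. NFE2L2, the gene of NRF2, correlated with SOD2 at 0.74. With the known targets of NRF2 it gave 0.49 for HMOX1, 0.48 for PRDX1, 0.39 for GCLM, 0.31 for TXNRD1 and 0.25 for NQO1. The remaining members were not set apart from these targets: SOD1 gave 0.48, CAT 0.48, GPX4 0.02 and GPX3 -0.10.

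Among 8415 named genes whose log2 CPM averaged 3 or more, those most like each member in pattern over the 19 libraries were found by Pearson correlation. For PRDX1 they were PSMA7 (0.92) and PSMA1 (0.91), which encode subunits of the proteasome core, and PRELID1 (0.91). For GCLM they were MTM1 (0.98), SNX29 (0.96) and SLC41A1 (0.95), and for GPX4 GRK6 (0.89), SNX12 (0.89) and EFNB1 (0.88). CAT ran with S100A11 (0.89), CTNNA1 (0.85) and ABI1 (0.83). SOD1 ran with GTF2A2 (0.86), APIP (0.85) and UBE2F (0.82), and SOD2 with APIP (0.79), INPP5K (0.79) and NFE2L2 (0.74). HMOX1 ran with INPP5K (0.70), IRS2 (0.70) and ADM (0.69), GPX3 with HDGFRP3 (0.71), ORC3 (0.64) and IGF2 (0.63), and TXNRD1 with CHURC1-FNTB (0.75), DRG1 (0.73) and CCNA1 (0.73). NQO1 ran with IDH3G (0.82), TRPC4 (0.81) and IDH3A (0.80), and these values were 0.51, 0.43 and 0.37 without WSD+C 4 and WSD+T 6. The PRDX1 and GCLM partners had values between 0.90 and 0.96 without those libraries.

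The members were set against 71 further genes of the same pathways, of which 69 were in the table and 63 were tested. GPX1, the most widespread glutathione peroxidase, had no read in any of the 19 libraries, and GLRX5, MSRB1, SELENOW, NOX4 and XDH did not pass the filter on low counts. The leukocyte marker RAC2 also had no read, even in the libraries with high leukocyte scores. Whether RNA of such genes was absent or scarce, or their reads were not assigned to them, was not tested. TXN and SELENOP were not analysed here. None of the 63 passed the adjusted threshold in any comparison by edgeR. For WSD+T against Chow+C 51 of the 63 had a positive value with a median of 0.25, and 5 were higher and 2 lower at an unadjusted p under 0.05, against 460 higher and 554 lower of all 15019 genes. For WSD+T against WSD+C 53 of 63 were positive (median 0.16) with 2 higher, against 105 higher and 474 lower of all genes. For the testosterone main effect 49 were positive (median 0.15) with 3 higher and 2 lower, against 277 and 671 of all genes. For the diet main effect 40 were positive (median 0.11) with 6 higher and 2 lower, against 775 and 257 of all genes. For degenerating against MI 23 of 63 were positive (median -0.19) with 6 higher and 8 lower, against 1470 higher and 666 lower of all 14976 genes. Of these, 7787 were positive, and the positive counts over all genes for the treatment comparisons are given above.

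PGD, which makes NADPH in the pentose phosphate pathway, had the smallest p of these genes for diet. It was at 95.9 to 134 CPM with a median of 122 CPM in WSD+T, against 79.6, 82.0, 84.9 and 94.2 CPM in Chow+T, groups that did not overlap, by a narrow gap. Groups did not overlap for 1.17% of all genes in this comparison. WSD+C, at 85.4 to 126 CPM, overlapped Chow+C, at 67.2 to 103 CPM. The fitted diet main effect on PGD was 0.40 (SE 0.112, edgeR adjusted p = 0.701). PGD averaged 130 ± 3.75 CPM (SD) in the 3 libraries with the highest leukocyte scores, all WSD, against 97.0 ± 17.8 CPM in the other 16. Those 16 include all 8 Chow libraries, at 86.0 ± 12.8 CPM, so diet and leukocyte score are mixed in these averages. The part of cell mixture in the diet difference of PGD was not tested. PSTK, an enzyme of selenocysteine synthesis, had a diet main effect of -0.48 (SE 0.176, adjusted p = 0.701). SRXN1, the sulfiredoxin that repairs over-oxidized peroxiredoxins, was at 27.0 to 56.3 CPM in WSD+T, against 21.7 to 27.7 CPM in Chow+T, narrowly overlapping, with a difference of 0.71 (SE 0.272, adjusted p = 0.862). SECISBP2, which brings selenocysteine into growing proteins, differed by -0.42 between WSD+C and Chow+C (adjusted p = 0.83) and by -0.40 between Chow+T and Chow+C (adjusted p = 0.69). Chow+C 2, the library with the smallest share of reads in genes, held 10.4 CPM of PSTK and 112 CPM of SECISBP2, against 2.91 to 6.23 CPM and 47.1 to 78.8 CPM in the others. MAFK, a partner of NRF2 on DNA, differed by -0.76 between WSD+T and Chow+T (adjusted p = 0.862).

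For testosterone the smallest p among these genes belonged to SOD3, the extracellular superoxide dismutase, at a low level of 0.47 to 8.88 CPM over all libraries. Its testosterone main effect was -1.17 (SE 0.452, edgeR adjusted p = 0.767). FTH1, the heavy chain of the iron store ferritin, had a testosterone main effect of 0.58 (SE 0.230, adjusted p = 0.767). Its highest libraries, WSD+T 6 (1643 CPM), Chow+T 1 (1435 CPM) and WSD+T 3 (1380 CPM), all had a degenerating oocyte. WSD+T 6 and WSD+T 3 had high leukocyte scores, as did WSD+C 4 at 539 CPM. FTH1 also differed by 0.94 between degenerating and MII (SE 0.298, edgeR adjusted p = 0.962). The parts of testosterone, oocyte class and cell mixture were not tested. The table holds a second row under the same symbol, and reads of such copies can be split by the counting. SLC7A11, the cystine transporter, lay at 0.10 to 1.25 CPM and had a testosterone main effect of -1.07 (SE 0.442, adjusted p = 0.767). For the interaction the smallest p was that of CCS, the copper chaperone of SOD1, with 1.40 (SE 0.647, adjusted p = 0.933); CCS was at 61.1 CPM in Chow+C 2 and at 44.1 CPM in WSD+T 3, against 6.30 to 22.3 CPM in the other libraries.

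For degenerating against MI, genes that are not of the defence itself but produce superoxide were among those with the smallest p: NCF1 and CYBB, subunits of the phagocyte NADPH oxidase. CYBB was at 308 CPM in WSD+T 6, 86.1 CPM in WSD+C 4 and 17.5 CPM in WSD+T 3, and at 0.15 to 3.36 CPM in the 8 MI libraries. The fitted differences were 5.46 for CYBB (SE 1.58, edgeR adjusted p = 0.169) and 4.15 for NCF1 (SE 1.09, adjusted p = 0.164). CYBB was also at 23.1 CPM in Chow+T 2, which had an MII oocyte and the lowest GPX4 level. NCF1 was at 5.44 to 25.0 CPM in WSD+T 3, WSD+T 6 and WSD+C 4, against 0.05 to 2.96 CPM in the other 16 libraries. For degenerating against MII, SEPSECS, the last enzyme of selenocysteine synthesis, had a difference of -0.86 (SE 0.243, adjusted p = 0.962), and the glutaredoxin gene GLRX had 1.19 (SE 0.493, adjusted p = 0.962). For MII against MI, GLRX differed by -1.27, CYBA by 1.28 and the microsomal glutathione transferase MGST1 by -0.81, none past the adjusted threshold.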

How the data were processed

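RNA of luteinized granulosa cells was sequenced from 19 animals, 1 library each, after polyA selection in non-directional libraries, per the labels' protocols. The authors deposited unnormalized counts of reads for each gene as a single table. Trimmomatic and STAR are named, per the submitters' processing notes; which versions, genome build and annotation they used is not given in the sources used here. No coordinates or sequences are therefore printed. Without strand, a gene's reads and those of a gene on the other strand of the same place cannot be told apart, and near-identical copies make a gene's count uncertain. Multimapping reads, 4450170 to 11600101 per library, and 3 further classes that name no gene stayed out of library sizes and tests; 49.1% to 69.1% of all reads fell in genes.

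The tests ran in edgeR 4.0.16 under R 4.3.3: filterByExpr (minimum count 10, minimum total 15), TMM scaling, the robust quasi-likelihood test, two-sided, and Benjamini-Hochberg adjustment over all genes tested with a threshold of 0.05. The treatment fit held 19 libraries and 4 group means. The oocyte fit held 18 libraries, left out the GV library and had the treatment group as a term. Main effects are the mean of both differences of a factor, and the interaction is the difference between them. The biological coefficient of variation was 0.583, and reads carry no molecular identifiers, so depth bounds counting error only. Scores are mean log2 CPM (prior count 1) of a marker list.

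Alternatives were other scalings, no filter, DESeq2 1.42.0, limma 3.58.1 voom, leaving out libraries, marker scores or oocyte class as covariates, and MI and MII libraries alone. In the last, for PRDX1 and GPX4 as for GPX3, Chow+T held only MII and WSD+C only MI oocytes. The 10 members and all lists were chosen with earlier results of these data known. All members are named; of other pathway genes, up to 3 with the smallest p per comparison; and per member the 3 genes of highest correlation. A gene that this rule names is not reported here. The labels do not number replicates, so numbers follow sample order. That each library is a separate animal rests on the labels.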

Additional observations from a re-analysis of the deposited data

Results flagged for a closer look

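In 70 sets of 4 to 8 libraries, each 1 gene in 1 treatment group or oocyte class, 5 held a library farther from its neighbour than the 95% limit of Dixon's test allows; chance gives about 1 in 20. GPX4 was at 321 CPM in WSD+C 4, against 52.8 to 69.3 CPM in the other WSD+C libraries. In the same library GCLM was at 16.1 CPM, against 79.5 to 133.9 CPM in the others of that group. CAT was at 210.4 CPM in WSD+C 2, against 96.5 to 135 CPM in the other libraries with an MI oocyte, and at 185 CPM in Chow+T 3, against 137 to 143 CPM in the others with an MII oocyte. HMOX1 was at 3.24 CPM in Chow+C 3, against 24.4 to 107 CPM in the other libraries with an MI oocyte. WSD+C 4 was also set apart by its marker scores, with 6.53 for leukocytes and 9.81 for erythroid cells; their part in its GPX4 and GCLM levels was not tested beyond the fits with these scores as covariates.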

How the results depend on the processing

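No member passed the adjusted threshold under any alternative in 10 of the 11 comparisons. In degenerating against MI the count was 1 by DESeq2 and 1 without the treatment term (GPX4 in both), and 0 to 0 over the fits that left out 1 library each. Of the alternative values of single members, 3101 kept their side of the threshold and sign, 2 passed it and 247, none of them past it, changed sign. Over all genes DESeq2 called 3 to 6 in 7 comparisons, 0 in WSD+C against Chow+C and WSD+T against WSD+C, 801 in degenerating against MI and 8 in degenerating against MII, where edgeR called 0. In degenerating against MI edgeR called 574 genes without the treatment term and 226 without Chow+T 1. MI and MII libraries alone gave 4 calls in Chow+T against Chow+C and 1 in WSD+T against Chow+T, leaving out Chow+C 4 gave 1 for diet, and in degenerating against MII the leukocyte covariate gave 6 and leaving out WSD+C 2 gave 1. In degenerating against MI the median of all genes was 0.12 without a filter and 0.10 with upper-quartile scaling. Leaving out WSD+C 4, WSD+T 3 and WSD+T 6 together, and scaling by library size alone, were chosen after seeing the data. No paired analysis was possible because the labels give no replicate numbers shared between groups. The cause of these differences between settings was not tested.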
